A study of Mus musculus with 8 samples.

Results

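Histone genes were followed in pancreatic islets isolated from mice. Islets are small endocrine organs in which beta cells make insulin. The set takes every gene whose symbol begins with Hist1h, Hist2h, Hist3h, Hist4h, H1f, H2af or H3f, and 58 of the 16333 genes in the deposited tables meet this rule. Of these, 46 carry Hist symbols (replication type) and 12 carry H1f, H2af or H3f symbols (replacement type). The 12 include H3f3aos, an antisense transcript of H3f3a, and H3f3c, which is annotated as a processed pseudogene. GENCODE release M21 lists 91 genes with such symbols, and the other 33 were not analysed here. The set was put forward because linker histone genes stood among the calls of the cytokine response in knockout islets, so the values of that comparison are given as a description.

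The tables come from 8 RNA-seq libraries in 4 groups of 2: KO islets with cytokines, KO islets untreated, WT islets with cytokines and WT islets untreated. KO stands for NFATc2βKO mice, in which Nfatc2 (a transcription factor activated through calcineurin) had been deleted by tamoxifen in the insulin-expressing cells of adult animals. WT stands for wild-type mice that had also received tamoxifen, with no gene deleted. The labels name the strain of all mice as Agouti/C57BL6 and give no age and no Cre line, and the deleted exons are not named there. Islets of each of 2 KO and 2 WT mice were kept overnight in 5.5 mM glucose and then divided, and for 2 h they were either left untreated or given IL1β (5 ng/mL), TNFα (10 ng/mL) and IFNγ (50 ng/mL) together with 11 mM glucose. The glucose of the untreated islets during the 2 h is not given. Cytokines and any rise in glucose therefore cannot be told apart, and "cytokines" below means the whole treatment. The tables call the second genotype Mut, which was taken for WT because it is the remaining one.

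A nucleosome wraps DNA around a core of histones H2A, H2B, H3 and H4, and a linker histone, H1, binds where the DNA enters and leaves. Replication-type genes are clustered, mostly lack introns, and supply histones in S phase. Their mRNAs end in a conserved stem-loop in place of a poly(A) tail, although some of these genes also give polyadenylated mRNA in cells that do not divide. Replacement-type genes stand alone, give polyadenylated mRNA, and are used throughout the cell cycle. H3f3a and H3f3b encode the same replacement H3, H2afz and H2afv encode H2A.Z proteins, H2afx encodes the H2A that is phosphorylated at DNA breaks, H2afy and H2afy2 encode macroH2A proteins, and H1f0 encodes the linker histone typical of differentiated cells. Most adult islet cells do not divide.

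On GRCm38, 37 of the 58 genes lie on chromosome 13 and 8 on chromosome 3. The stem-loop is shown first because it was found mainly in the replication type, and because some of the genes described below have annotated sequence far beyond it. In the transcripts of GENCODE M21 a motif of 16 bases, read on the sense strand, was found in 33 of 46 replication-type genes, in 1 of 12 replacement-type genes (H2afx) and in 72 of 21901 protein-coding genes (0.329%). Its letters are GG, then 2 bases of any kind, CTTTT, any base, AG, 2 bases of any kind, and CC. The sequences below are 26 bases each, 5′ to 3′, with the motif in capitals, in DNA letters.
Hist1h1c: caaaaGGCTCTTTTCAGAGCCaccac
Hist1h1d: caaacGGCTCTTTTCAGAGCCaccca
Hist1h1e: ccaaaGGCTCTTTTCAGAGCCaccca
Hist1h2ab: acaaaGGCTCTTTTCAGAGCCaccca
Hist1h2bm: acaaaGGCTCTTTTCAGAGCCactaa
Hist1h3c: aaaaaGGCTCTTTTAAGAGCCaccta
H2afx: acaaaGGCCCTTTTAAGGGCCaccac
These stem-loops lie at chr13:23739507-23739532, plus strand, for Hist1h1c, at chr13:23555782-23555807, plus strand, for Hist1h1d, and at chr13:23621777-23621802, minus strand, for Hist1h1e. That of Hist1h2ab lies at chr13:23751567-23751592, plus strand, that of Hist1h2bm at chr13:21722501-21722526, plus strand, that of Hist1h3c at chr13:23745042-23745067, minus strand, and that of H2afx at chr9:44335235-44335260, plus strand. The annotated transcript continues after the motif for 840 bases in Hist1h1c, 4884 bases in Hist1h1d and 1153 bases in Hist1h1e, against 11 bases in Hist1h2ab, 46 bases in Hist1h2bm and 74 bases in Hist1h3c. Among the 34 genes with the motif, 18 had 300 or more annotated bases after it. The annotation on which reads were counted is not stated in the sources used here.

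Promoters are shown for the 4 linker genes in whose windows the H1 box, given below, was found. They come from RefSeq (GRCm38.p6) and run from 250 bases before to 50 bases after the annotated start. Capitals mark AAACACA (the H1 box known from linker histone promoters), CCAAT and TATATAA where they lie on the printed strand.
Hist1h1c: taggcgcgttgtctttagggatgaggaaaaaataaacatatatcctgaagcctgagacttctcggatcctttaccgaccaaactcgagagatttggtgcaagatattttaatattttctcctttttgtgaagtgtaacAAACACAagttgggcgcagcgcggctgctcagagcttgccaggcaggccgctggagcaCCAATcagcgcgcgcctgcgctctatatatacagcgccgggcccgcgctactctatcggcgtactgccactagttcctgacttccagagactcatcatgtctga
Hist1h1d: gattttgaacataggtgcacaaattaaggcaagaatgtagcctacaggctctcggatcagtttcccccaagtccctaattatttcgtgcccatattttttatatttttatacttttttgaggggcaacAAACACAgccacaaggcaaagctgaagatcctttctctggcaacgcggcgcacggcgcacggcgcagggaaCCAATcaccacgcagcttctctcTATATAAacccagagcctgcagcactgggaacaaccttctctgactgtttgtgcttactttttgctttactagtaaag
Hist1h1e: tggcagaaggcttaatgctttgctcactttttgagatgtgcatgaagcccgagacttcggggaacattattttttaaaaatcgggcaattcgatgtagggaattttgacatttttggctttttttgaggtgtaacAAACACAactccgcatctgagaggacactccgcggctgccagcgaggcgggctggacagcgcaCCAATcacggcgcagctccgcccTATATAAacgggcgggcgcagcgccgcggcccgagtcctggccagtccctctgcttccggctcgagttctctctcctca
Hist1h1b: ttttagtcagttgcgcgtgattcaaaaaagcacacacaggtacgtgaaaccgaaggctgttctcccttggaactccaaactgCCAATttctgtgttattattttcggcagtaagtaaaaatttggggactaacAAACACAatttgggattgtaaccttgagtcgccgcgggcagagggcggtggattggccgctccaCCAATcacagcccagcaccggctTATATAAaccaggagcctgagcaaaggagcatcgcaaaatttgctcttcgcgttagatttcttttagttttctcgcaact
The windows are chr13:23738557-23738856, plus strand, for Hist1h1c, chr13:23554782-23555081, plus strand, for Hist1h1d, chr13:23622509-23622808, minus strand, for Hist1h1e, and chr13:21780576-21780875, minus strand, for Hist1h1b. The H1 box began at base -112 relative to the start in Hist1h1c, at -122 in Hist1h1d, at -115 in Hist1h1e and at -117 in Hist1h1b. On either strand AAACACA was found in 4 of the 5 replication-type linker genes, in 0 of the 2 replacement-type linker genes, in 2 of 36 replication-type and 1 of 8 replacement-type core genes and in 7.18% of all 32851 promoters of the table. CCAAT was found in all 5 replication-type linker promoters, in 27 of 36 replication-type and 6 of 8 replacement-type core promoters and in 37.4% of all promoters. TATATAA was found in 3 of the 5 linker promoters, in 5 of 36 replication-type core promoters and in 3.24% of all promoters. Of the 58 genes, 51 matched a promoter in the table. Hist1h1a, the replication-type linker gene without the H1 box letters in its window, is described below with the genes that differed between genotypes. With cytokines it too was higher in all 4 mice (log2 changes of 0.35 to 0.65), without a call. Hist1h1b, which has the box, was lower in the WT male mouse (-0.16). A part of the box in the cytokine response was not tested.

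Values are normalized counts, which are reads divided by a size factor of the library, and within a group the female mouse is given before the male mouse. A gene is called when the authors' deposited FDR, adjusted over all 16333 genes, is below 0.05. Because each mouse gave a treated and an untreated library, limma was also fitted with the mouse as a block on the reads recovered from the deposited means, with adjustment over 16296 genes. The recovered libraries held 13917707 to 25750268 reads. In each group Y-linked reads marked 1 library as male and 1 as female, and the female KO library with cytokines held 37 Y-linked reads where its untreated partner held 0. Nfatc2 had 987 and 899 normalized counts in KO islets with cytokines and 1167 and 842 in KO islets untreated, against 1646 and 1144 in WT islets with cytokines and 1557 and 1270 in WT islets untreated. Its KO over WT log2 fold change in the authors' deposited tables was -0.49 (SE 0.23, FDR 0.903) untreated and -0.56 (SE 0.24, FDR 0.474) with cytokines, so the deletion is not shown by a call on the whole gene. Markers of beta, alpha, delta, acinar, duct, endothelial, stromal and leukocyte cells were all present, so each library is a mixture of cell types. In such libraries fewer cells of a type and less RNA per cell cannot be told apart.

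With cytokines the replication-type linker genes Hist1h1c, Hist1h1d and Hist1h1e, the replacement linker gene H1f0 and the replacement gene H3f3b were higher in every mouse, of both genotypes. The authors' tables called 2 of the 58 genes in KO islets, Hist1h1d and Hist1h1e, and 7 of all genes (0.0429%), and since the set was proposed from this comparison, nothing is read from that count. In WT islets they called 0 of the 58, with 2 of all genes called (0.0122%), and 5 of the 58 had an unadjusted p below 0.05 (0.918% of all genes). Blocking on the mouse with limma called 5 in KO islets (0.123% of all genes) and 3 in WT islets (0.153% of all genes).

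Hist1h1c encodes a linker histone that is common in differentiated cells. It had 6026 and 6088 normalized counts in KO islets with cytokines, against 4151 and 4384 in KO islets untreated. WT islets held 4377 and 5805 with cytokines, against 3128 and 4319 untreated. The KO groups lay well apart, whereas in WT islets the female mouse with cytokines was barely above the male mouse untreated. Within mice the log2 change of Hist1h1c lay between 0.43 and 0.54. The authors' deposited log2 fold change was 0.50 (SE 0.18, FDR 1) in KO and 0.45 (SE 0.18, FDR 1) in WT islets. With the mouse as a block, limma gave 0.51 (SE 0.05, adjusted p = 0.0137) in KO and 0.46 (SE 0.05, adjusted p = 0.0271) in WT islets.

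Hist1h1e, another replication-type linker histone gene, had 1756 and 1707 normalized counts in KO islets with cytokines, against 1132 and 1217 in KO islets untreated. In WT islets the values were 1868 and 1710 with cytokines, against 1255 and 1266 untreated. Treated and untreated groups did not overlap in either genotype. The authors' deposited log2 fold change was 0.56 (SE 0.13, FDR 0.0332) in KO and 0.50 (SE 0.13, FDR 0.248) in WT islets, and limma with the mouse as a block gave adjusted p-values of 0.0239 in KO and 0.0442 in WT islets. Hist1h1e overlaps Hist1h2be, an H2B gene on the same strand, and 32% of its 50-base words occur in other annotated transcripts, so some of its reads could have been assigned to other genes.

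Hist1h1d, the third of these linker genes, had 1147 and 974 normalized counts in KO islets with cytokines, against 649.8 and 532 in KO islets untreated. In WT islets it had 923 and 1170 with cytokines, against 732 and 846 untreated. Both treated groups lay above their untreated groups, and the untreated KO libraries were the lowest of all. The authors' deposited log2 fold change was 0.85 (SE 0.14, FDR 3.5e-05) in KO islets and 0.40 (SE 0.14, FDR 1) in WT islets. With the mouse as a block, limma gave 0.84 (SE 0.07, adjusted p = 0.00702) in KO and 0.40 (SE 0.07, adjusted p = 0.0972) in WT islets. The response in KO minus that in WT islets was 0.44 (SE 0.20). This was the single difference in response among the 58 genes with an unadjusted p below 0.05 (0.22% of all genes), and it did not pass adjustment over all genes (adjusted p = 1 from the deposited fold changes, 0.998 with limma). Neither fit called such a difference for any of the 58 genes, nor for any of all genes (0%). A call in KO and none in WT islets is thus not shown to be a difference between the genotypes. Hist1h1d was the linker gene with the longest annotated stretch beyond the stem-loop.

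The replacement linker gene H1f0 had 3625 and 3566 normalized counts in KO islets with cytokines, against 2768 and 2761 in KO islets untreated. WT islets had 3157 and 3470 with cytokines, against 2679 and 2970 untreated. No groups of a genotype overlapped. The authors' deposited log2 fold change was 0.38 (SE 0.11, FDR 0.792) in KO and 0.23 (SE 0.11, FDR 1) in WT islets, and limma with the mouse as a block gave adjusted p-values of 0.0375 in KO and 0.181 in WT islets. H1fx, the other replacement linker gene, had 232 and 219 normalized counts in KO islets with cytokines and 202 and 196 in KO islets untreated, against 230.2 and 158 in WT islets with cytokines and 181 and 172 in WT islets untreated. Its deposited log2 fold changes of 0.18 (SE 0.29) in KO and 0.13 (SE 0.29) in WT islets were not called.

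H3f3b and H3f3a encode the same H3 protein, and their values differed. H3f3b had 5996 and 5561 normalized counts in KO islets with cytokines, against 4338 and 4221 in KO islets untreated. In WT islets it had 4607 and 5589 with cytokines, against 3361 and 3793 untreated. The treated libraries lay above the untreated ones in both genotypes, and the deposited log2 fold change was 0.43 (SE 0.12, FDR 0.265) in KO and 0.51 (SE 0.12, FDR 0.0764) in WT islets. Blocking on the mouse, limma called both, with adjusted p-values of 0.0251 in KO and 0.0271 in WT islets. H3f3a had 1656 and 1522 normalized counts in KO islets with cytokines and 1653 and 1553 in KO islets untreated, against 1669 and 1996 in WT islets with cytokines and 1589 and 1550 in WT islets untreated. Its deposited log2 fold change was 0.22 (SE 0.14, FDR 1) in WT islets, and its KO minus WT difference in response was -0.23 (SE 0.19, adjusted p = 1). H3f3a and H3f3aos, an antisense transcript, overlap in a short stretch at one end, and reads from that stretch cannot be told apart without their strand.

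**Figure D1:**
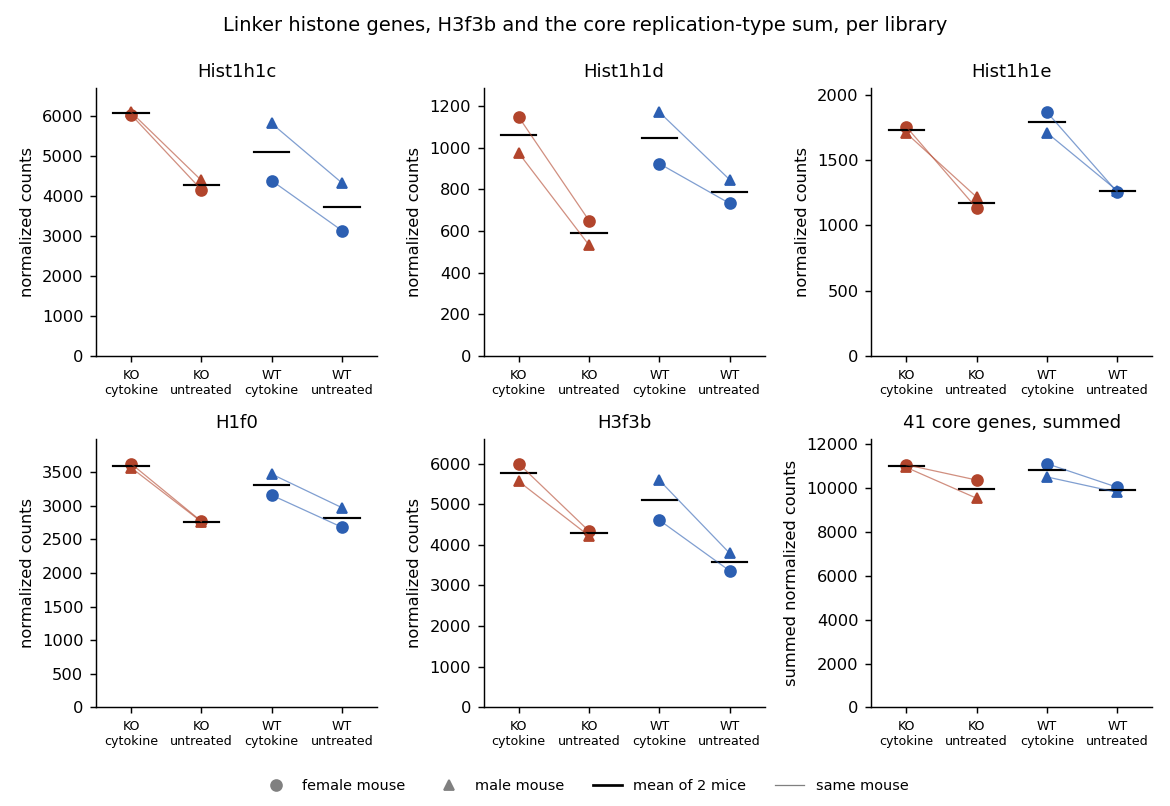
Normalized counts per library (y axis, from 0) of Hist1h1c, Hist1h1d, Hist1h1e, H1f0 and H3f3b, and the sum over 41 core replication-type genes, in KO and WT islets with cytokines or untreated (x axis). Circles are female and triangles male mice, thin lines join the 2 libraries of a mouse and bars are means of 2 mice. Each of the 5 genes is higher with cytokines in all 4 mice, Hist1h1d by a log2 change of 0.82 and 0.87 in KO mice and of 0.33 and 0.47 in WT mice, while the core sum changes by 0.09 to 0.20.

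A single cytokine term over both genotypes, with the 4 mice as blocks, was added after the tables had been seen. In it limma called 6 of the 58 genes, all higher, with 146 of all genes called (0.896%). The KO libraries that led to the choice of the set are part of this fit, so nothing is read from that count. They were Hist1h1c (log2 0.48, SE 0.03, adjusted p = 0.000821), H3f3b (log2 0.47, SE 0.03, adjusted p = 0.000821), Hist1h1e (log2 0.53, SE 0.04, adjusted p = 0.00118), H1f0 (log2 0.30, SE 0.04, adjusted p = 0.0126), Hist1h1d (log2 0.62, SE 0.09, adjusted p = 0.0163) and Hist1h2be (log2 0.35, SE 0.06, adjusted p = 0.0396). Without the KO female mouse 3 stayed called (30 of all genes called), and without the KO male mouse 3 (36 of all genes). Without the WT female mouse 6 stayed called (176 of all genes), and without the WT male mouse 4 (46 of all genes). These counts rose with the number called over all genes, so nothing is read from them. Hist1h1c, Hist1h1e and H3f3b were called each time. Hist1h2be overlaps Hist1h1e, and how reads in both were counted is not stated in the sources.

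The responses by role are set out in the plot of log2 fold changes by family. All 5 replication-type linker genes had positive log2 fold changes in both genotypes, with medians of 0.56 in KO and 0.45 in WT islets in the authors' deposited tables. Replication-type H2B genes had medians of 0.30 in KO (10 of 11 positive) and 0.19 in WT islets (8 of 11 positive), and H2A genes had medians of 0.15 in KO and 0.06 in WT islets. The medians of H3 genes were 0.17 in KO and 0.03 in WT islets, and those of H4 genes 0.08 in KO and 0.13 in WT islets. The 6 replacement H2A genes stood lower, with medians of -0.02 in KO and -0.08 in WT islets and 2 of 6 positive in each. Over all 46 replication-type genes the median was 0.18 in each genotype, over the 12 replacement-type genes 0.10 in KO and 0.06 in WT islets, and over all genes 0.00 in each.

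**Figure D2:**
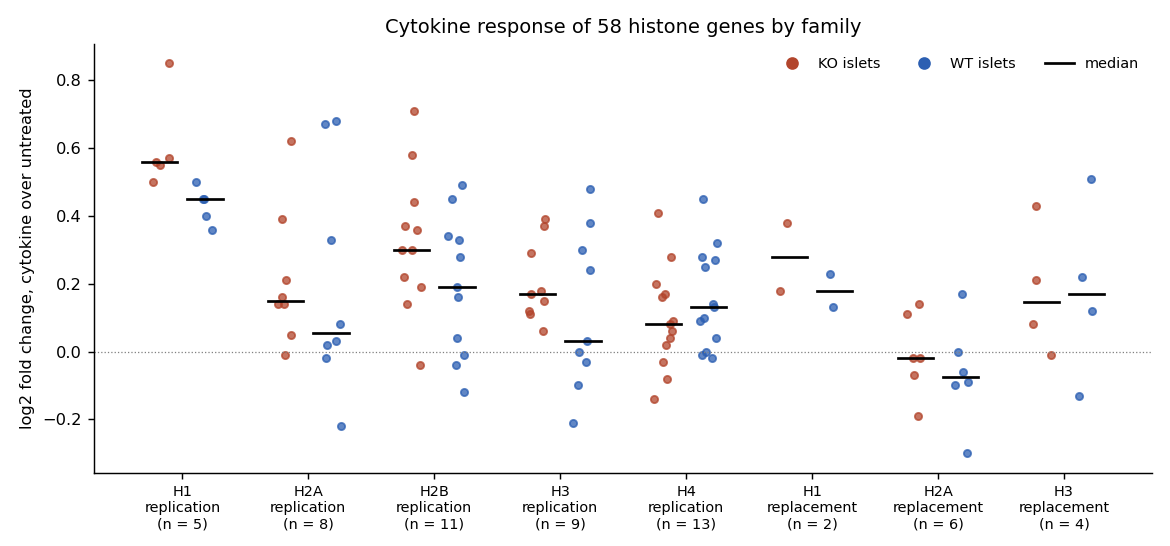
Log2 fold change with cytokines over untreated from the authors' deposited tables (y axis) for 58 histone genes, grouped by family and type (x axis), in KO islets (red, left in each family) and WT islets (blue, right). Each point is a gene and each bar a median over genes. Replication-type linker genes lie between 0.50 and 0.85 in KO islets and between 0.36 and 0.50 in WT islets, and replacement H2A genes lie around 0.

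Linker and core genes of the replication type were also summed. The 5 linker genes together held 9134 and 8989 normalized counts in KO islets with cytokines, against 6102 and 6250 untreated, and 7256 and 8745 in WT islets with cytokines, against 5171 and 6486 untreated. Per mouse these are log2 changes of 0.58 and 0.52 in KO and 0.49 and 0.43 in WT mice. The 41 core genes together held 11061 and 10940 in KO islets with cytokines, against 10364 and 9534 untreated, and 11110 and 10506 in WT islets with cytokines, against 10034 and 9805 untreated. Their log2 changes were 0.09 and 0.20 in KO and 0.15 and 0.10 in WT mice, so the linker sum moved more than the core sum in both WT mice. In the KO mice, where it did too, this restates how the set was chosen. Hist1h1c gave most of the reads in the linker sum.

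Hist1h4d and H2afy, core genes with many reads, were not called. Hist1h4d, an H4 gene, had 1483 and 1555 normalized counts in KO islets with cytokines and 1479 and 1370 in KO islets untreated, against 1882 and 1465 in WT islets with cytokines and 1586 and 1469 in WT islets untreated. Its deposited log2 fold change was 0.09 (SE 0.16) in KO and 0.13 (SE 0.16) in WT islets. H2afy, which encodes a macroH2A, had 2886 and 2723 in KO islets with cytokines and 2971 and 2719 in KO islets untreated, against 3293 and 2643 in WT islets with cytokines and 3193 and 2731 in WT islets untreated. Its deposited log2 fold change was -0.02 (SE 0.17) in KO and 0.00 (SE 0.17) in WT islets. Treated and untreated libraries of H2afy overlapped in both genotypes, while those of Hist1h4d overlapped in WT islets and lay side by side, without overlap, in KO islets. Hist1h2be, the H2B gene called over both genotypes, had 729 and 737 in KO islets with cytokines, against 580.4 and 558 untreated, and 605 and 864 in WT islets with cytokines, against 537 and 619 untreated, where the WT groups overlapped. Hist1h4a, an H4 gene with no call, had 149.7 and 139 in KO islets with cytokines, against 115 and 103 untreated, and 115 and 102 in WT islets with cytokines, against 89.1 and 84.8 untreated, so that treated libraries lay above untreated ones in each genotype. H2afx had 443 and 462 in KO islets with cytokines, against 428 and 492 untreated, and 453 and 379.9 in WT islets with cytokines, against 489 and 532 untreated, and its deposited log2 fold change was -0.02 (SE 0.19) in KO and -0.30 (SE 0.20) in WT islets. Hist1h3f, an H3 gene, had 134 and 149 in KO islets with cytokines, against 108 and 125 untreated, and 146 and 102 in WT islets with cytokines, against 137 and 146 untreated. The difference of its responses, KO minus WT, was 0.50 (SE 0.45, adjusted p = 1).

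Of the 58 genes, 19 were higher with cytokines in all 4 mice (32.8%), with 12.4% of the 16296 genes with recovered reads. The KO mice among them led to the choice of the set, so nothing is read from the excess. In the WT mice, counted apart after the values had been seen, 27 of the 58 genes were higher with cytokines in both (46.6%), against 26.9% of all genes. The 19 genes comprised 4 of 5 replication-type linker genes, 5 of 11 H2B, 5 of 13 H4, 2 of 8 H2A and 1 of 9 H3 genes of the replication type, together with H1f0 and H3f3b. The linker gene outside this count, Hist1h1b, was lower in the WT male. H2afz was the gene lower in all 4 mice (1.72%), against 12.5% of all genes, and its log2 changes lay between -0.19 and -0.01. The mitosis and stromal marker sums were also higher with cytokines in all 4 mice, as was the sum of 15 RNAs known to lack poly(A) tails, whose values are given below with the genotypes. Sums lower in all 4 mice were those of 2 beta markers, 3 delta and PP markers and 24 genes of histone mRNA processing. Mafa and Nkx6-1 made up the beta sum, and Sst, Hhex and Ppy the delta and PP sum. The beta sum was 9420 and 9825 with cytokines, against 10339 and 9934 untreated, in KO islets and 9804 and 8679 with cytokines, against 10493 and 9326 untreated, in WT islets. Reads of the beta markers Ins1, Ins2 and Iapp were not recovered. Their KO group means were higher with cytokines than untreated (565513 against 559904, 1009372 against 994393 and 291255 against 286828). In WT islets Ins1 (547303 against 621091) and Ins2 (880435 against 1039157) were lower with cytokines, and Iapp was 328004 against 327944. The delta and PP sum was 44011 and 33624 with cytokines, against 57097 and 46330 untreated, in KO islets and 49258 and 33621 with cytokines, against 52044 and 40313 untreated, in WT islets. By group mean, with cytokines against untreated, Ppy was lower in both genotypes (17318 against 30652 in KO and 15082 against 17426 in WT islets). Sst, a delta marker, was 21274 against 20822 in KO and 26052 against 28490 in WT islets. Hhex was 225 against 239 in KO and 306 against 263 in WT islets. The stromal sum (4 of 4 markers) was 7639 and 3024 with cytokines, against 6069 and 2989 untreated, in KO islets and 6803 and 1505 with cytokines, against 1347 and 1128 untreated, in WT islets. The acinar sum (4 of 4 markers) moved in both directions, with 48217 and 8904 with cytokines, against 27804 and 12452 untreated, in KO islets and 11112 and 2194 with cytokines, against 25986 and 2932 untreated, in WT islets. The part of these sums in the histone values was not tested.

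The next comparison is that of genotypes. Several replication-type genes with few reads stood higher in KO than in WT islets, whether or not cytokines were given, and none of the 4 that limma called for KO over WT with cytokines was among the 6 called for cytokines over untreated in both genotypes together. Hist1h1a and Hist1h2bm were nevertheless higher with cytokines in all 4 mice. Untreated, the authors called 0 of the 58 genes, with 67 of all genes called (0.41%), while 7 of the 58 had an unadjusted p below 0.05 (4.89% of all genes). Of these 7, Hist1h1d was lower in KO islets (log2 fold change -0.42) and the others were higher. With cytokines the authors called 1, Hist1h2bm, with 163 of all genes called (0.998%). Blocking on the sex of the mouse, limma called Hist1h1a and Hist1h2bm untreated (2.1% of all genes) and Hist1h1a, Hist1h1b, Hist1h2bm and Hist1h2bn with cytokines (3.76% of all genes). Mice of the same sex in the 2 genotypes are different animals, so that block removes a sex difference and nothing else. The cytokine-treated and untreated libraries come from the same 4 mice, so the conditions are not independent views of the genotypes.

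Hist1h2bm, a replication-type H2B gene, had 87.5 and 88.3 normalized counts in KO islets and 31.5 and 27.5 in WT islets with cytokines. Untreated it had 59.6 and 48.1 in KO islets against 22.6 and 20.6 in WT islets. The genotypes did not overlap in either condition. The deposited log2 fold change was 1.58 (SE 0.43, FDR 0.0267) with cytokines and 1.32 (SE 0.46, FDR 0.309) untreated, and limma with sex as a block gave adjusted p-values of 0.0158 with cytokines and 0.0365 untreated. Other annotated transcripts hold 43.8% of the 50-base words of Hist1h2bm, so some of its reads could belong elsewhere.

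Hist1h1a, the linker gene with no H1 box letters in its window, had 104 and 90.9 normalized counts in KO islets and 34.8 and 38.3 in WT islets with cytokines, and 76.6 and 57.7 in KO islets and 23.9 and 29.8 in WT islets untreated. All KO libraries lay above all WT libraries of Hist1h1a. The deposited log2 fold change was 1.41 (SE 0.41, FDR 0.0538) with cytokines and 1.31 (SE 0.43, FDR 0.232) untreated, and with sex as a block limma gave adjusted p-values of 0.0264 with cytokines and 0.0478 untreated. Hist1h1b, a linker gene that is known to follow proliferation, had 101 and 129.9 in KO islets and 53.2 and 22.5 in WT islets with cytokines, and 92.6 and 58.4 in KO islets and 31.9 and 25.2 in WT islets untreated. Its deposited log2 fold change was 1.63 (SE 0.52, FDR 0.106) with cytokines and 1.40 (SE 0.54, FDR 0.454) untreated, and limma called it with cytokines (adjusted p = 0.0455). No 50-base word of Hist1h1a or Hist1h1b occurs in another annotated transcript.

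Hist1h2bn, an H2B gene, had 122 and 156 normalized counts in KO islets and 60.8 and 69.1 in WT islets with cytokines, and 119 and 97.6 in KO islets and 70.5 and 60.7 in WT islets untreated. Its deposited log2 fold change was 1.10 (SE 0.33, FDR 0.0747) with cytokines and 0.73 (SE 0.34, FDR 0.867) untreated, and limma called it with cytokines (adjusted p = 0.0353). Of its 50-base words 86.4% occur in other annotated transcripts, so its reads are uncertain. Hist1h3c, an H3 gene, had the largest deposited difference of the 58 genes. It had 50.7 and 78.1 normalized counts in KO islets and 21.7 and 5 in WT islets with cytokines, and 61.4 and 45.8 in KO islets and 12 and 6.88 in WT islets untreated. The WT libraries held few reads of Hist1h3c, and the log2 fold changes of 2.31 (SE 0.72, FDR 0.0976) with cytokines and 2.52 (SE 0.76, FDR 0.132) untreated were not called. Other annotated transcripts hold 47% of the 50-base words of Hist1h3c.

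**Figure D3:**
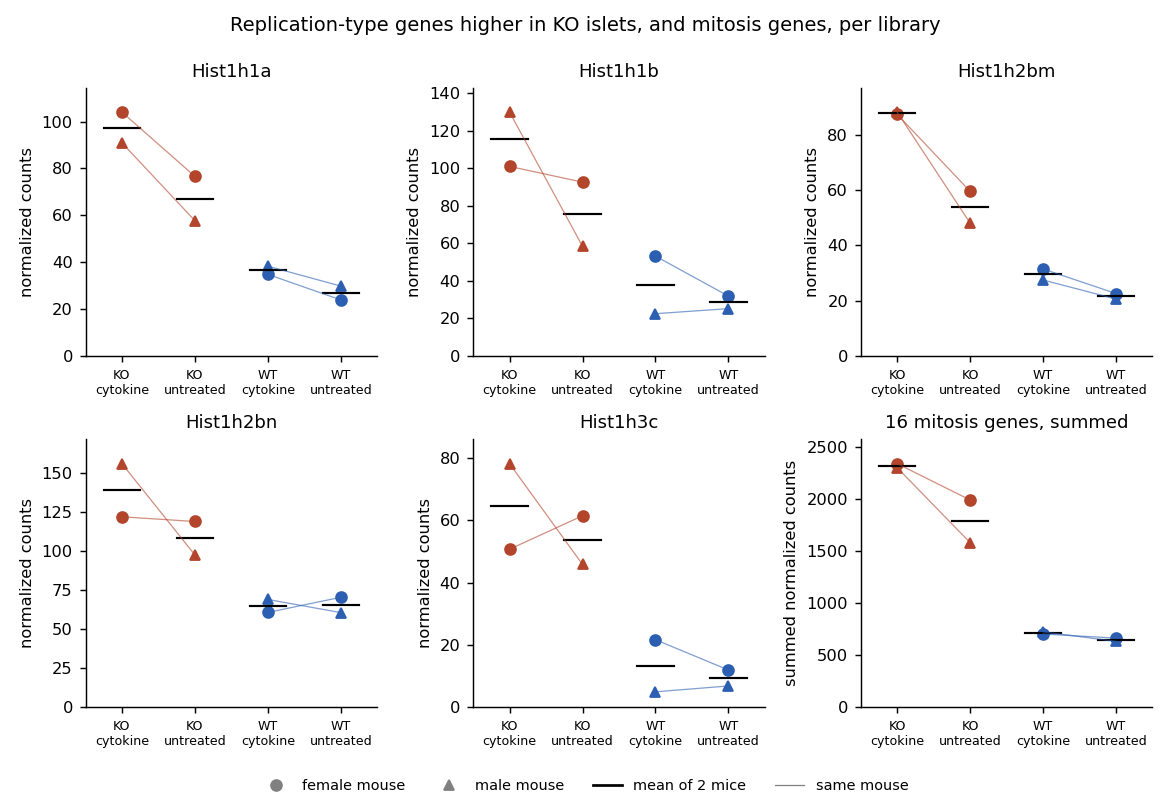
Normalized counts per library (y axis, from 0) of Hist1h1a, Hist1h1b, Hist1h2bm, Hist1h2bn and Hist1h3c, and the sum over 16 mitosis genes, in KO and WT islets with cytokines or untreated (x axis). Circles are female and triangles male mice, thin lines join the libraries of a mouse and bars are means of 2 mice. Each KO group lies above the WT group of the same condition, and the mitosis sum is 1580 to 2337 in KO libraries and 634 to 724 in WT libraries.

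Both KO libraries lay above both WT libraries in both conditions for 11 of the 58 genes (19%), against 7.98% of all genes. All 11 were of the replication type: Hist1h1a, Hist1h1b, Hist1h2ab, Hist1h2ak, Hist1h2bh, Hist1h2bj, Hist1h2bm, Hist1h2bn, Hist1h3a, Hist1h3c and Hist1h4a. Except for Hist1h1a and Hist1h1b, these genes share 50-base words with other annotated transcripts, from 18.8% in Hist1h2bh to 86.4% in Hist1h2bn (58% in Hist1h2ab). In the opposite direction 2 genes, Hist1h4c and Hist2h4, lay lower in KO islets in both conditions (7.14% of all genes). Among all 46 replication-type genes the median KO over WT log2 fold change was 0.06 with cytokines and 0.08 untreated. Among the 12 replacement-type genes it was 0.09 with cytokines and -0.04 untreated, and over all genes 0.00 in each condition. The KO over WT log2 ratio of the summed replication-type counts was 0.09 with cytokines and 0.03 untreated. Of the linker genes called with cytokines, Hist1h1c had a KO over WT log2 fold change of 0.25 (SE 0.19) with cytokines and 0.20 (SE 0.19) untreated, and Hist1h1e had -0.05 (SE 0.12) with cytokines and -0.10 (SE 0.12) untreated. Hist1h1d had 0.02 (SE 0.20) with cytokines and -0.42 (SE 0.20, FDR 0.895) untreated, where both KO libraries lay below both WT libraries. None of these was called.

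**Figure D4:**
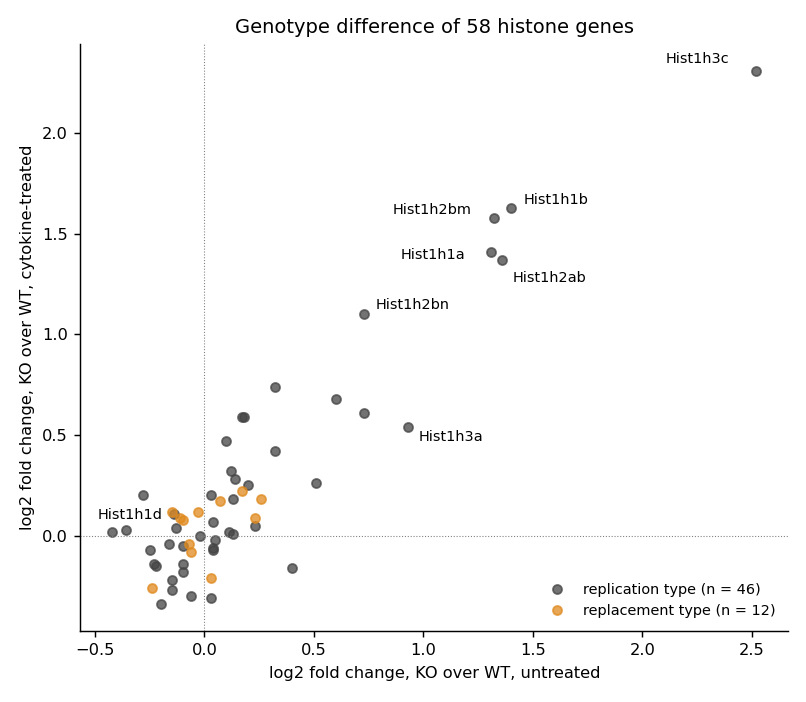
KO over WT log2 fold change of 58 histone genes in the authors' deposited tables, untreated (x axis) and with cytokines (y axis), with replication-type genes in grey and replacement-type genes in orange. The conditions come from the same mice. Most genes lie near 0, while Hist1h3c (2.52 untreated and 2.31 with cytokines), Hist1h1b, Hist1h2bm, Hist1h1a and Hist1h2ab lie above 1 in both.

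Several genes of cell division were also higher in KO islets. The sum of 16 measured mitosis genes was 2337 and 2298 in KO islets and 704 and 724 in WT islets with cytokines, and 1989 and 1580 in KO islets and 665 and 634 in WT islets untreated. The authors called 7 of the 16 higher in KO islets with cytokines and 5 untreated, none lower. Of all genes they called 0.998% with cytokines and 0.41% untreated. Mki67, a nuclear protein of dividing cells, had a log2 fold change of 1.96 (SE 0.22, FDR 1.24e-14) with cytokines and 1.84 (SE 0.23, FDR 1.39e-11) untreated. Top2a, a topoisomerase that untangles chromosomes, had 1.95 (SE 0.21) with cytokines and 1.67 (SE 0.21) untreated, and Kif11, a spindle motor, had 1.80 (SE 0.36) with cytokines and 2.25 (SE 0.38) untreated. Of 29 DNA replication genes 29 had positive log2 fold changes with cytokines and 25 untreated, with medians of 0.38 with cytokines and 0.25 untreated, and the authors called 1, Pole (a DNA polymerase subunit), with 1.32 (SE 0.35, FDR 0.0234) with cytokines. limma with the sex block called 6 of the 29 with cytokines, all higher, and 0 untreated. Of the mitosis genes limma called 9 with cytokines and 6 untreated, all higher. Of all genes limma called 3.76% with cytokines and 2.1% untreated. Both lists were chosen with earlier results of these data known, so nothing is read from these counts. Cenpa, the centromeric H3, had 72.3 and 56 normalized counts in KO islets and 36.9 and 22.5 in WT islets with cytokines, and its log2 fold change of 1.12 (SE 0.53, FDR 0.717) was not called.

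Sums of cell type markers also differed between genotypes. The leukocyte sum (6 of 7 markers measured, none at 0) was 2290 and 2888 in KO islets and 967 and 818 in WT islets with cytokines, and 1732 and 1323 in KO islets and 649 and 839 in WT islets untreated. The endothelial sum (3 markers) was lower in KO islets, with 3255 and 2534 in KO islets and 5292 and 4936 in WT islets with cytokines, and 3206 and 3010 in KO islets and 4005 and 4658 in WT islets untreated. Untreated, the stromal sum was higher in KO islets, with 6069 and 2989 against 1347 and 1128 in WT islets. With cytokines the stromal sums overlapped (7639 and 3024 in KO, 6803 and 1505 in WT islets). The sum of the 15 RNAs known to lack poly(A) tails whose reads were recovered (of 19 measured) was 63514 and 59896 in KO islets and 43382 and 48115 in WT islets with cytokines, and 52559 and 57859 in KO islets and 37865 and 43873 in WT islets untreated. The list of 19 is wider than the sum and holds Neat1, and the lack of a tail was not checked here. Over that list KO over WT log2 fold changes were positive in 15 of 19 with cytokines (median 0.30). Untreated they were positive in 9 of 19 (median -0.02). Rmrp gave most of the counts in the sum. Rn7s2, an RNA of the signal recognition particle, and Rmrp, the RNA of a ribonuclease, were called higher in KO islets untreated, with log2 fold changes of 1.21 (SE 0.24, FDR 0.000296) and 0.51 (SE 0.13, FDR 0.0353). The sources do not state how RNA was selected for the libraries. The part of cell division, leukocytes, endothelial cells, stromal cells or RNA selection in the histone difference was not tested.

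Factors that process histone mRNA or carry histones were not called. Of 24 measured genes for histone transcription, stem-loop processing and decay, the authors called 0 in each of the 4 comparisons, and medians lay between -0.06 and 0.02. The smallest p was that of Ccne1, cyclin E, with a KO over WT log2 fold change of 0.65 (SE 0.33, FDR 0.825) with cytokines. Of 25 histone chaperones and importers the authors also called 0, with medians between -0.04 and 0.03. Chaf1b, a subunit of the complex that deposits histones at replication forks, had 0.66 (SE 0.36, FDR 0.951) for KO over WT with cytokines. limma with the block called 0 genes of both lists in each comparison.

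Finally, the annotation beyond the stem-loop was set beside these values. Of the 6 genes called over both genotypes with cytokines, the 4 replication-type ones (Hist1h1c, Hist1h1d, Hist1h1e and Hist1h2be) all had 300 or more annotated bases after the motif. Of the 11 genes that stood higher in KO islets in both conditions, 1 did, Hist1h2bh, while 5 had the motif with fewer bases after it and 5 had no motif in the annotated transcript. The 18 genes with 300 or more bases had median responses of 0.19 in KO and 0.09 in WT islets, and the 16 with fewer had 0.16 in KO and 0.31 in WT islets. For KO over WT the medians of the 18 genes were 0.00 with cytokines and -0.12 untreated, against 0.12 with cytokines and 0.20 untreated for the 16 genes. These are descriptions of genes chosen after their values were seen and carry no test.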

How the data were processed

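RNA-seq of mouse islets was analysed from 4 deposited tables of the authors' comparisons. Per the submitters' processing notes, HISAT2, HTSeq, DESeq2 and GRCm38 were used, without versions or roles. The deposited signal columns are mean counts divided by library size factors, over a group or over all 8 libraries, the deposited log2 fold changes and scores (Wald statistics) are the authors', and the deposited p-values and FDR follow from those scores by a normal probability and a Benjamini-Hochberg adjustment. Standard errors are the log2 fold change over the score. The smallest deposited mean was 23.2, so low genes had been filtered.

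Whole reads per library were recovered from the digits of the group means for 16296 of 16333 genes (99.77%), and for all 58 histone genes. Reads divided by the authors' size factors, plus 1, were fitted on the log2 scale in limma 3.58.1 (R 4.3.3), with trend, with the mouse as a block for cytokine responses and the sex of the mouse for genotypes. In the genotype fits the 2 libraries of a mouse count as independent, so those p-values are too small. Pairing comes from the series' design, in which the islets of each mouse were split. The female minus male differences over 13706 autosomal genes correlated between treated and untreated libraries (0.65 in KO, 0.70 in WT). Within a genotype the mouse and its sex cannot be told apart, so this correlation cannot show the pairing by itself. With 2 mice per genotype, p-values of the blocked cytokine fits rest on how the change varied between few animals. Those of the genotype fits measure the spread between animals of a genotype only in part. The difference between responses was tested as the difference of deposited log2 fold changes over its standard error. On simulated data, only the limma fits of cytokine responses and the recovery of reads were checked. The genotype fits and the difference between responses were not checked in this way.

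The members and the gene lists were chosen with earlier results of these data known. Named are genes called by the authors or by limma with the block, the 3 smallest p-values per comparison, linker genes, the genes with the most reads, and from each list (histone mRNA processing, chaperones, DNA replication, mitosis, RNAs without poly(A), other histones) the called genes or the smallest p. Genes in lists of non-overlapping groups were named after their values were seen. Stem-loops and positions are from GENCODE M21, promoters from RefSeq.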

Additional observations from a re-analysis of the deposited data

How the results depend on the processing

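With the replicate block, limma called 5 histone genes in the KO response, 3 in the WT response, 2 for KO over WT untreated and 4 with cytokines, and the counts were the same with a pseudocount of 0.5 and with TMM scaling. Without the block, limma called 0 of the 58 genes in each comparison, while 8 in the KO response, 7 in the WT response, 8 for KO over WT untreated, 9 with cytokines and 0 in the interaction had an unadjusted p below 0.05. In the interaction limma with the replicate block also called 0, with 1 at an unadjusted p below 0.05. The shares of all genes at an unadjusted p below 0.05 were not computed for these limma fits. Nothing is therefore read from those counts. With the authors' p-values adjusted over genes averaging 50 or more, 0 were called for KO over WT with cytokines, since Hist1h2bm has no such mean. Leaving out each mouse in turn, limma without the block called 0 in each of the 4 comparisons, and the lone mouse of a group was assumed to vary like the other groups. The response over both genotypes, added after the data were seen, gave 3 to 6 calls, with 30 to 176 of all genes called. No fold change followed gene by gene changed sign in the settings run.

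Medians over genes, leaving out each mouse in turn (also added after the data were seen), ranged from 0.16 to 0.29 in the KO response and 0.16 to 0.22 in the WT response for the replication type, and from -0.01 to 0.14 in KO and -0.04 to 0.04 in WT islets for the replacement type. For KO over WT they ranged from 0.01 to 0.19 with cytokines and -0.05 to 0.15 untreated for the replication type, and from -0.03 to 0.08 with cytokines and -0.02 to 0.00 untreated for the replacement type. The replication-type genotype median thus lacks a stable sign untreated, where leaving out the KO female mouse gave the negative value. The negative replacement-type values arose without the KO female mouse in the KO response, the WT female mouse in the WT response and the WT male mouse for KO over WT with cytokines. As a log2 ratio of sums the replication-type response was 0.32 in KO and 0.26 in WT islets and the replacement-type response 0.21 in KO and 0.20 in WT islets, and the replacement-type ratio of KO over WT was 0.05 with cytokines and 0.04 untreated. Over genes averaging 50 or more the replication-type median in WT islets was 0.13, and scaling to counts outside mitochondrially encoded genes gave a replacement-type median of 0.06 for KO over WT with cytokines. Their causes were not tested.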
